A study of Mus musculus with 16 samples.

Results

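S100a5-tauGFP mice had their olfactory mucosa dissociated and sorted, and the 8 arrays described here measured RNA of the GFP- cells. They were taken from the 16 arrays of the series by their labels alone. Of these, 4 arrays came from mice exposed to octanol (octanol GFP-) and 4 from mice exposed to filtered air (vehicle GFP-). The other 8 arrays hold the GFP+ cells of the same 2 exposures and were used only to set the GFP- differences beside those of GFP+ cells. Every mouse carried the S100a5-tauGFP reporter, and each array holds RNA pooled from 3 mice. Per the labels, 24 mice of both sexes, 7 to 12 weeks old, spent 40 h alone in chambers flushed with clean air at 3.1 L/min, and from 26 h on they received octanol or filtered air for 10 s every 20 min. After the sort by fluorescence, 50 to 100 ng of total RNA was labelled for Clariom S arrays. Octanol is a straight-chain alcohol with an odor. The sort divided cells by reporter fluorescence and not by cell type, so a GFP- array is a mixture, and in such a mixture fewer cells of a type and less RNA per cell cannot be told apart.

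Olfactory sensory neurons lie in an epithelium that also holds basal stem cells, immature neurons, sustentacular cells, Bowman glands and resident or circulating immune cells. Each mature neuron expresses a single odorant receptor gene, and S100a5, a calcium-binding protein gene, is transcribed more in neurons that odors activate. The assay named in the series title sorts neurons by a reporter of that gene, so a neuron that gains GFP after odor exposure is collected with the GFP+ cells and is no longer in the GFP- fraction. GFP- cells include sensory neurons with little reporter, younger neurons and the cells that are not neurons. The comparison of octanol with vehicle within GFP- cells asks what the exposure left different in that remainder, and for receptor genes whether any became scarcer there.

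The sort label held for its own gene. S100a5 averaged 15.93 ± 0.13 log2 in octanol GFP- arrays and 16.80 ± 0.04 log2 in octanol GFP+ arrays, and 16.08 ± 0.22 log2 in vehicle GFP- arrays and 16.90 ± 0.11 log2 in vehicle GFP+ arrays (SD, n = 4 each). S100a5 RNA was thus well above the background of 6.32 log2 in GFP- cells too. That background is the 95th percentile of the levels of 319 vomeronasal receptor genes, most of which are expressed outside this tissue. Csf3r, the granulocyte colony stimulating factor receptor of neutrophils, averaged 12.20 ± 0.76 log2 in octanol GFP- arrays and 5.98 ± 0.50 log2 in octanol GFP+ arrays, so blood cells were in the GFP- fraction. Of 9 measured horizontal basal cell genes 2 lay above background, and of 10 measured endothelial genes 3 did. The basal cell keratin genes Krt5, Krt14 and Krt15, and the endothelial gene Cdh5, lay under background in both exposures. Background was exceeded in at least 1 exposure by 13175 of 19505 genes and by 994 of 1091 odorant receptor genes.

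Arrays of GFP- cells were alike. Whole arrays correlated at 0.992 to 0.994 among octanol arrays, at 0.991 to 0.994 among vehicle arrays and at 0.990 to 0.995 across exposures. The median absolute difference between arrays was 0.225 log2 for octanol pairs, 0.208 log2 for vehicle pairs and 0.215 log2 across exposures. Octanol replicate 1 stood apart on the second principal component, which held 20.6% of the variance: it scored -33.4 there, and the other 7 arrays lay between -6.56 and 9.81. That array had the highest mean of the Bowman gland, fibroblast, neutrophil and heat shock gene lists and the lowest mean of the odorant receptors, so results below are given without it where it bears on them. Vehicle replicates 1 and 2 and octanol replicate 2 lay at the high end of the first component, at 19.5, 25.1 and 15.03.

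**Figure D1:**
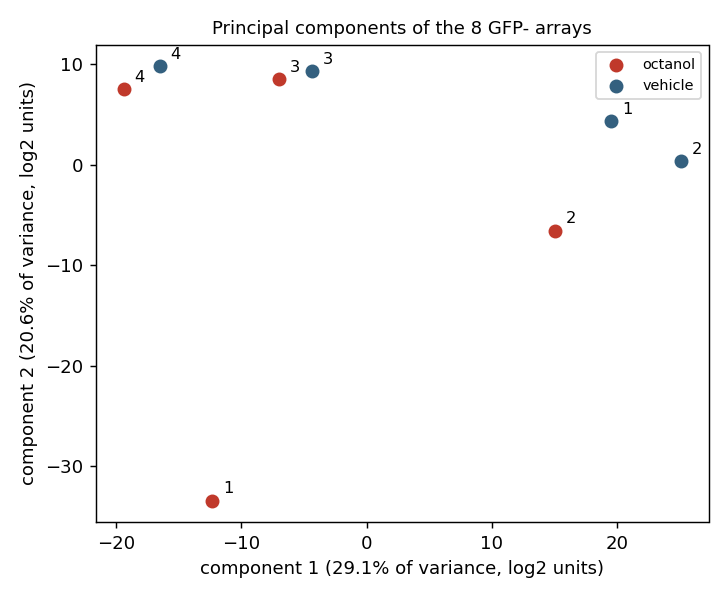
Principal component scores of the 8 GFP- arrays in log2 units, octanol arrays in red and vehicle arrays in blue, with the replicate number beside each point. The exposures overlap on component 1, and octanol replicate 1 lies apart at -33.4 on component 2.

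No gene passed the test between octanol and vehicle in GFP- cells. In limma, with p-values adjusted by Benjamini-Hochberg over 19505 genes, 0 genes (0%) were higher and 0 genes (0%) were lower at an adjusted p under 0.05, and the smallest adjusted p was 0.982. At an unadjusted p under 0.05 there were 894 genes (4.58%), of which 394 were higher after octanol (2.02%) and 500 were lower (2.56%). The 4 octanol values lay wholly above the 4 vehicle values for 206 genes (1.06%) and wholly below them for 295 genes (1.51%). The test of whether the octanol difference in GFP- cells departs from that in GFP+ cells also gave 0 genes in limma at an adjusted p under 0.05, with 886 genes (4.54%) at an unadjusted p under 0.05. The p-values measure the spread between pools of 3 mice.

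Intervals of single genes, not adjusted for the number of genes tested, were of moderate width. Over the genes above background the median SE of the difference was 0.15 log2 and the median half-width of its 95% interval was 0.33 log2. For 12665 of them (96.1%) the interval lay within 1 log2 of 0 on both sides. The adjusted test was stricter than these intervals: Olfr95, at -1.22 log2 with an interval of -1.79 to -0.65, did not pass it. The 0 calls thus do not show that such differences were absent. A fitted difference of more than 1 log2 was seen for 14 genes above background, 6 of them higher and 8 lower after octanol, and none of these passed the adjusted test. They were chosen here by size after their values were seen. The 6 higher were the gland secretory genes Bpifb9a and Bpifb9b, the lipocalin Lcn11, 5430402E10Rik, and Stfa2 and Cstdc4, which belong to the cystatin superfamily of protease inhibitors. The 8 lower held 5 odorant receptors, the B cell genes Tnfrsf13c and H2-Ob, and Usp29.

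**Figure D2:**
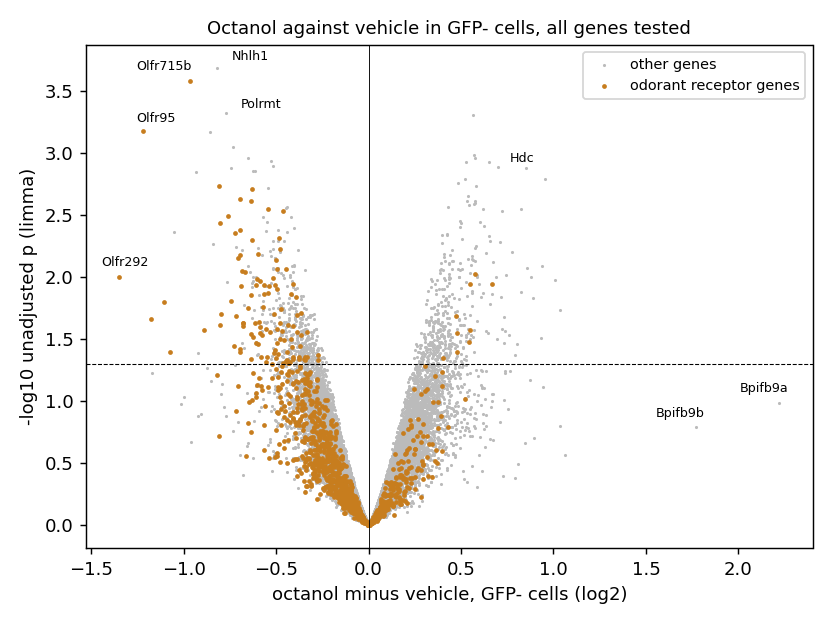
Each point is a gene, with the octanol minus vehicle difference in GFP- cells (log2) on the x axis and minus log10 of the unadjusted limma p on the y axis. Odorant receptors are drawn apart from other genes and lie mostly left of 0, and no point passed an adjusted p of 0.05.

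Odorant receptor genes as a group had lower values after octanol. Their median difference was -0.16 log2, against -0.02 log2 over all genes tested and -0.01 log2 over the genes that are not receptors. The receptor median was -0.12 log2 with each array centred on all genes and -0.13 log2 with quantile scaling. Centring each array on its own receptor median sets it near 0 by construction, at -0.0049 log2. Of 1091 receptors 835 (76.5%) had a difference below 0, against 9668 of 18414 other genes (52.5%). At an unadjusted p under 0.05, 110 receptors (10.1%) were lower and 9 (0.825%) were higher, against 390 (2.12%) and 385 (2.09%) of the other genes. No receptor passed the adjusted test. From the 5th to the 95th percentile receptor differences ran from -0.59 to 0.23 log2, and those of other genes from -0.29 to 0.32 log2.

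**Figure D3:**
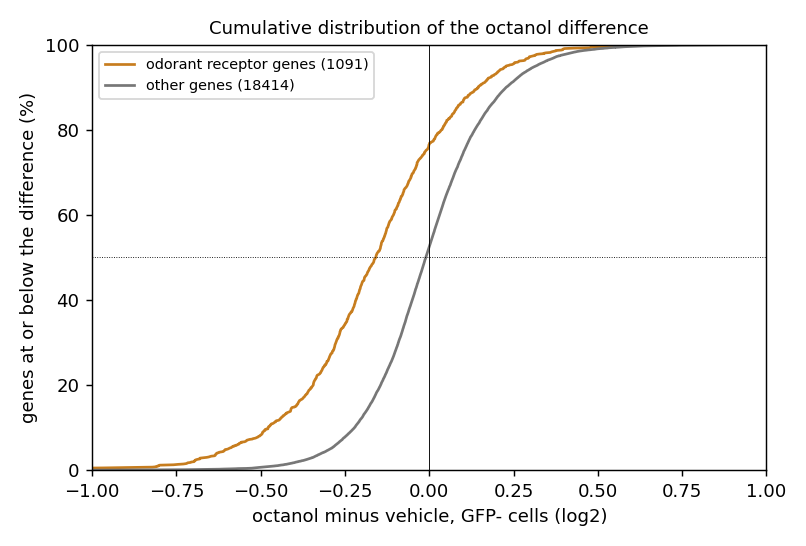
Cumulative share of genes (%) at or below each octanol minus vehicle difference in GFP- cells (log2), for 1091 odorant receptors and 18414 other genes. The receptor curve lies to the left, with its median at -0.16 log2 against -0.01 log2 for other genes. Centring each array on its receptors sets the receptor median near 0 by construction, at -0.0049 log2.

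Receptors were read array by array. The mean level over the 994 receptors above background was 9.62, 9.89, 9.80 and 9.78 log2 in octanol replicates 1 to 4, against 10.01, 10.12, 9.81 and 9.86 log2 in vehicle replicates 1 to 4. Vehicle replicates 1 and 2 were the highest and octanol replicate 1 the lowest, and octanol replicate 2 lay above vehicle replicates 3 and 4, so the exposures overlapped. Within each replicate number the octanol mean was the lower, by little in replicate 3, but the labels do not say that a number marks a shared day. Without octanol replicate 1 the receptor median was -0.11 log2, and 76 receptors were lower and 18 higher at an unadjusted p under 0.05. Without vehicle replicate 2 it was -0.12 log2, with 70 lower and 20 higher. Leaving out vehicle replicate 1 gave 88 lower and 15 higher. The 319 vomeronasal receptor genes, 13 of them above background, had a median of 0.02 log2. At an unadjusted p under 0.05, 7 were higher (2.19%) and 6 lower (1.88%), against 2.02% and 2.56% of all genes.

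Both receptor classes had medians below 0 in the deposited values. Class I receptors, the branch shared with fish, had a median of -0.13 log2, which was -0.028 log2 without octanol replicate 1. At an unadjusted p under 0.05, 10 of 121 were lower (8.26%) and 1 higher (0.826%), against 2.56% and 2.02% of all genes. Class II receptors, to which most receptors of land vertebrates belong, had a median of -0.16 log2, with 96 of 950 lower (10.1%) and 8 higher (0.842%). With arrays centred on receptors, which sets the median over all receptors near 0, the class I median was 0.02 log2 and the class II median -0.0072 log2. Trace amine receptors, a separate small family that detects amines, had a median of -0.22 log2 over 15 genes, 12 of them below 0, and none at an unadjusted p under 0.05. That median turned to 0.024 log2 without octanol replicate 2 and was -0.11 log2 without vehicle replicate 1. Taar7a averaged 9.70 ± 0.35 log2 after octanol and 10.19 ± 0.43 log2 after vehicle, and Taar3 7.51 ± 0.39 and 7.91 ± 0.68 log2 (SD, n = 4 each). The Taar3 difference of -0.39 log2 was -0.12 log2 without vehicle replicate 4. On every chromosome with a measured receptor the median receptor difference lay below 0, from -0.25 to -0.01 log2.

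In GFP+ cells of the same exposures the receptors did not share this direction. The receptor median there was 0.01 log2, and 575 of 1091 receptors (52.7%) had a difference above 0. The GFP+ median was -0.05 log2 for class I and 0.02 log2 for class II. The difference between fractions was tested gene by gene and gave no call, and it was not tested for receptors as a group.

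Olfr95, a class II receptor, had the largest difference among receptors whose exposures did not overlap. It measured 10.04, 10.39, 9.94 and 10.89 log2 in octanol GFP- replicates 1 to 4, against 10.98, 12.04, 11.74 and 11.38 log2 in vehicle GFP- replicates 1 to 4. Every octanol value lay below every vehicle value, with octanol replicate 4 and vehicle replicate 1 the nearest pair. The difference was -1.22 log2 (SE 0.26, 95% interval -1.79 to -0.65), or 2.33-fold lower, with an adjusted p of 0.982 in limma. It stayed between -1.41 and -1.05 log2 when any single array was left out. In GFP+ cells Olfr95 averaged 12.12 ± 0.48 log2 after octanol and 11.77 ± 0.43 log2 after vehicle (SD, n = 4 each), a difference of 0.34 log2. The GFP- difference minus the GFP+ difference was -1.56 log2 (SE 0.22), with an adjusted p of 0.863 over all genes in limma.

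The next receptors by the same rule were Olfr715b, Olfr447 and Olfr738. Olfr715b measured 8.72, 8.57, 8.12 and 8.17 log2 after octanol, against 9.68, 9.45, 9.06 and 9.25 log2 after vehicle. Its difference of -0.97 log2 (SE 0.18, adjusted p = 0.982, limma) had the smallest unadjusted p of the receptors named here. Olfr715, whose name marks it as a close relative, measured 8.69, 8.37, 7.63 and 8.06 log2 after octanol, against 8.998, 8.93, 8.92 and 8.78 log2 after vehicle. Probes of such a pair may share signal, so the 2 genes are not separate evidence. Olfr447 measured 8.49, 8.76, 8.62 and 8.36 log2 after octanol, against 9.85, 9.54, 9.18 and 8.90 log2 after vehicle, a difference of -0.81 log2 (SE 0.20). Olfr738 measured 7.14, 7.16, 6.36 and 7.25 log2 after octanol, against 7.93, 8.02, 7.35 and 7.82 log2 after vehicle, a difference of -0.80 log2 (SE 0.22). In all 3 of these receptors every octanol array lay below every vehicle array, and leaving out any 1 array kept each difference at -0.60 log2 or lower. In GFP+ cells the octanol differences were 0.35 log2 for Olfr715b, 0.31 for Olfr447 and 0.32 for Olfr738, all of the other sign and none past the adjusted test. The GFP- minus GFP+ differences were -1.31 (SE 0.25), -1.12 (SE 0.34) and -1.12 log2 (SE 0.23), each with an adjusted p of 0.998 in limma.

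**Figure D4:**
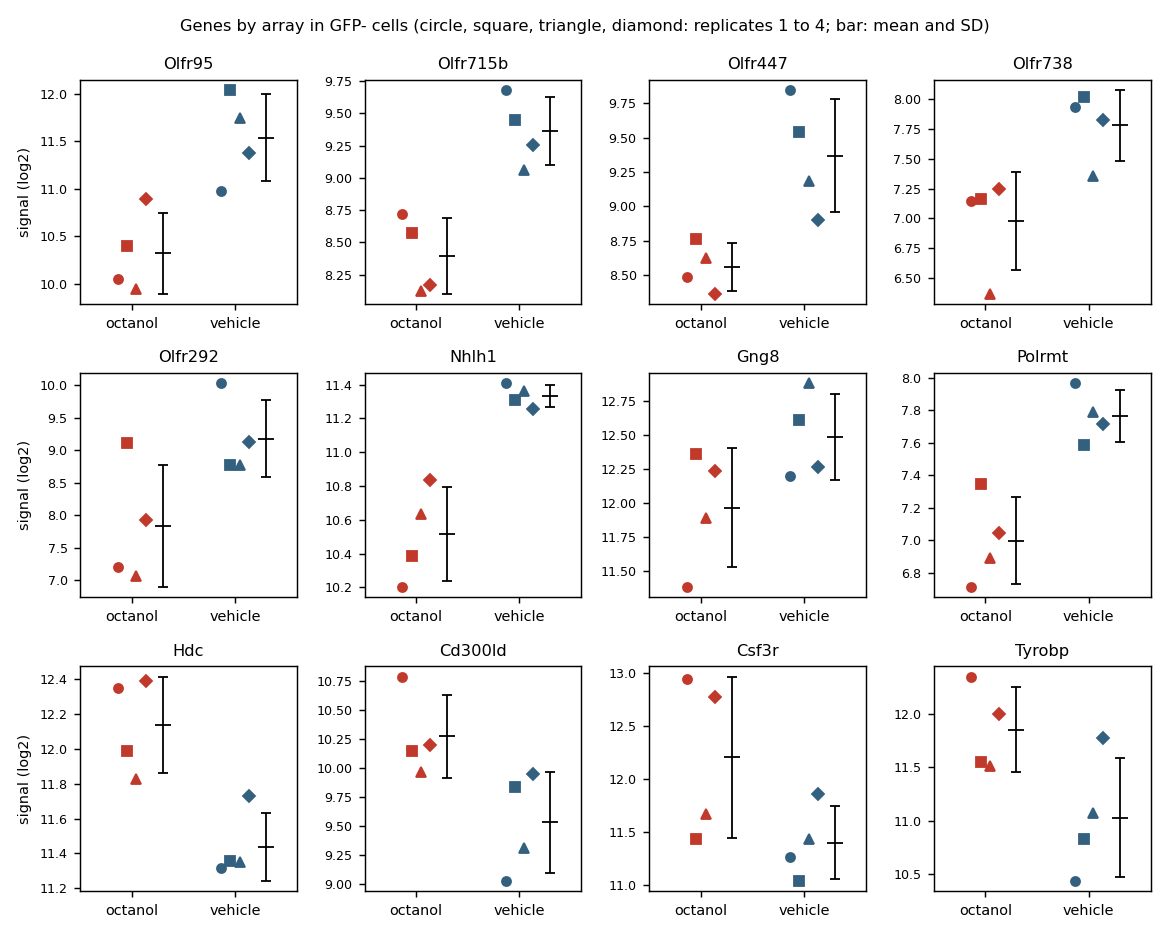
Level (log2) of 12 genes in each GFP- array, octanol arrays left and vehicle arrays right in each panel, with a bar for the group mean and SD. Olfr95, Olfr715b, Olfr447 and Olfr738 do not overlap between exposures, while Olfr292 does.

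Of the 1091 receptors 29 (2.66%) had all octanol values below all vehicle values, against 1.51% of all genes tested, and 1 (0.0917%) had them all above, against 1.06% of all genes. By class, 27 of the 29 are class II, 1 is class I and 1 is unclassified, and all 29 lay above background. The class I receptor is Olfr640, which measured 7.87, 7.31, 6.83 and 7.78 log2 after octanol, against 8.81, 7.94, 7.94 and 8.10 log2 after vehicle (difference -0.75 log2, SE 0.26). Olfr539 differed by -0.76 log2 (SE 0.20) and Olfr1000 by -0.71 log2 (SE 0.21). The smallest differences of the 29 were those of Olfr749 at -0.27 log2 and Olfr107 at -0.28 log2. Olfr312 had the tightest octanol values, 6.92, 6.94, 6.92 and 6.91 log2, against 7.57, 7.51, 7.23 and 7.25 log2 after vehicle. In GFP+ cells 15 of the 29 (51.7%) had a difference above 0, close to the 52.7% of all receptors, and none of the 29 was without overlap there in either direction.

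The 1 receptor wholly above vehicle was Olfr1508, a class II receptor. It measured 13.01, 13.06, 13.29 and 13.24 log2 after octanol, against 13.00, 12.92, 12.54 and 12.93 log2 after vehicle. Octanol replicate 1 and vehicle replicate 1 nearly met, and the difference was 0.30 log2 (SE 0.14, adjusted p = 0.982 in limma).

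Other receptors with differences beyond -1 log2 varied more between arrays. Olfr292 measured 7.21, 9.12, 7.07 and 7.93 log2 after octanol, against 10.03, 8.78, 8.77 and 9.13 log2 after vehicle, a difference of -1.35 log2 (SE 0.43). Octanol replicate 2 lay within the vehicle values, so the exposures overlapped. Olfr832 differed by -1.18 log2 (SE 0.44) but exceeded background on 1 octanol and 3 vehicle arrays, and with values raised to background it was 1.39-fold lower. Olfr307 differed by -1.11 log2 (SE 0.38). The class I receptors with the largest fitted differences were Olfr620 at -1.07 log2 (SE 0.46), Olfr640, Olfr678 at -0.68 log2 (SE 0.26) and Olfr683 at -0.65 log2 (SE 0.23). Olfr620 exceeded background on 2 octanol and 4 vehicle arrays, and with values raised to background it was 1.56-fold lower, less than Olfr640 at 1.68-fold and Olfr678 at 1.603-fold. It spread from 5.17 to 7.73 log2 after octanol, against 6.84 to 7.79 log2 after vehicle.

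Genes of immature sensory neurons had lower values after octanol, and those of mature neurons had a median difference near 0. Of 18 immature neuron genes 17 had a difference below 0 and the median was -0.24 log2, against -0.02 log2 over all genes. It was -0.08 log2 with arrays centred on receptors, which moved the median of all genes to 0.14 log2. At an unadjusted p under 0.05, 4 were lower (22.2%, against 2.56% of all genes) and 0 higher, and 3 (16.7%) lay without overlap below vehicle, against 1.51% of all genes. The list mean over arrays was 12.25, 12.57, 12.34 and 12.46 log2 after octanol, against 12.75, 12.76, 12.68 and 12.58 log2 after vehicle, so all octanol arrays lay below all vehicle arrays, octanol replicate 2 by little. Without octanol replicate 1 the median was -0.19 log2.

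Nhlh1, a transcription factor gene of newly born neurons, had the smallest p of all genes tested. It measured 10.20, 10.39, 10.64 and 10.84 log2 after octanol, against 11.41, 11.31, 11.36 and 11.25 log2 after vehicle. The vehicle arrays lay close together and all octanol arrays lay below them. The difference was -0.82 log2 (SE 0.15, 95% interval -1.14 to -0.49), or 1.76-fold lower, with an adjusted p of 0.982 in limma, and it was -0.71 log2 without octanol replicate 1. In GFP+ cells Nhlh1 averaged 6.34 ± 0.16 log2 after octanol and 6.32 ± 0.36 log2 after vehicle (SD, n = 4 each), near background. Gng8, a G protein gamma subunit of immature neurons, measured 11.38, 12.36, 11.88 and 12.23 log2 after octanol, against 12.20, 12.61, 12.88 and 12.26 log2 after vehicle (difference -0.52 log2, SE 0.23). Gap43, a growth cone protein gene, averaged 12.26 ± 0.49 and 12.68 ± 0.21 log2, a difference of -0.42 log2 (SE 0.23). Octanol replicates 2 and 4 lay within the vehicle values of Gng8, and octanol replicate 2, at 12.98 log2, was the highest of all 8 arrays for Gap43. Ablim1, an actin-binding protein gene, differed by -0.78 log2 (SE 0.45), and -0.28 log2 of that was left without vehicle replicate 1, which stood at 10.25 log2. Dpysl5, of the collapsin response mediator family, measured 12.56, 12.85, 12.68 and 12.81 log2 after octanol, against 13.02, 13.12, 12.90 and 12.95 log2 after vehicle, without overlap.

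Neuronal precursor genes leaned the same way by less. All 8 had differences below 0, with a median of -0.14 log2 that was -0.094 log2 without octanol replicate 1. None had an unadjusted p under 0.05. The list mean was 11.02, 11.29, 11.24 and 11.45 log2 after octanol, against 11.45, 11.24, 11.46 and 11.48 log2 after vehicle, so the exposures overlapped. With arrays centred on receptors, which moved the median of all genes to 0.14 log2, the precursor median was 0.01 log2. Neurog1, a proneural factor, differed by -0.26 log2 (SE 0.20) near background, and Insm1, a factor of neuronal differentiation, by -0.26 log2 (SE 0.17). Of 28 cell cycle genes 23 lay below 0 (median -0.14 log2, and 0.02 log2 with arrays centred on receptors). At an unadjusted p under 0.05, 1 (3.57%, against 2.56% of all genes) was lower. Single arrays moved that median: it was -0.018 log2 without octanol replicate 2 or without vehicle replicate 4, -0.066 log2 without octanol replicate 3 and -0.33 log2 without vehicle replicate 2. The gene was Aurkb, a mitotic kinase, at -0.46 log2 (SE 0.17). Bub1b, a spindle checkpoint gene, differed by -0.61 log2 (SE 0.31). The cell cycle mean was lowest on replicate 2 in both exposures, at 8.71 log2 after octanol and 8.61 log2 after vehicle. So was the erythroid mean, at 9.76 and 9.45 log2. Which cells of the mixture the cell cycle genes came from was not tested. Horizontal basal cell genes had a median of 0.09 log2 over 9 genes with none at an unadjusted p under 0.05, and Icam1 differed by 0.10 log2 (SE 0.18).

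Mature neuron genes had differences near 0. Their 19 members had a median of -0.01 log2, ranged from -0.14 to 0.10 log2, and none had an unadjusted p under 0.05. Omp, the marker of mature sensory neurons, averaged 18.10 ± 0.08 log2 after octanol and 18.11 ± 0.05 log2 after vehicle (SD, n = 4 each), with a 95% interval of -0.25 to 0.22 log2 for the difference. Its values lie near the top of the array's range. Ebf2, a transcription factor of the lineage, differed by -0.14 log2 (SE 0.13). Genes that end the odor response had a median of -0.01 log2 over 8 genes, and Camk2b, a calmodulin-dependent kinase, differed by 0.33 log2 (SE 0.20). Presynaptic genes had a median of -0.07 log2 over 18 genes, with Syn1, a synaptic vesicle protein gene, at -0.37 log2 (SE 0.21). Axon guidance and adhesion genes had a median of -0.11 log2 over 20, with Robo1 at -0.36 (SE 0.22) and Pcdh10 at 0.22 (SE 0.28). None of these 3 lists held a gene at an unadjusted p under 0.05. Dorsal zone genes (5, median -0.05 log2) and ventral zone genes (7, median -0.12 log2) likewise held none, with Robo2, a guidance receptor, at -0.14 log2 (SE 0.14) and Tenm4, a teneurin, at 0.19 log2 (SE 0.12). Necklace neuron genes had a median of 0.03 log2 over 14, with 1 (7.14%, against 2.56% of all genes) lower, Ms4a4b, at -0.49 log2 (SE 0.22). All these medians between -0.12 and -0.01 log2 lay above 0 when arrays were centred on receptors, as did the median of all genes, at 0.14 log2.

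Genes that follow neuronal activity had medians near 0 in GFP- cells. S100a5 measured 16.09, 15.89, 15.97 and 15.78 log2 after octanol, against 16.11, 16.10, 16.31 and 15.79 log2 after vehicle. Its difference was -0.15 log2 (SE 0.14, 95% interval -0.45 to 0.16) and its exposures overlapped. The 6 activity-raised genes had a median of 0.04 log2, with Pcp4l1 at -0.32 log2 (SE 0.21). Neurons and other cells induce immediate early genes within minutes of stimulation. Of 27 such genes 2 (7.41%, against 2.02% of all genes) were higher at an unadjusted p under 0.05 and none lower. Their median was -0.03 log2. Atf3, a stress-induced factor, measured 11.31, 11.71, 11.17 and 11.16 log2 after octanol, against 10.85, 10.61, 11.03 and 11.02 log2 after vehicle (difference 0.46 log2, SE 0.16). Egr3 measured 8.18, 7.95, 7.87 and 7.99 log2 after octanol, against 7.69, 7.36, 7.76 and 7.68 log2 after vehicle (difference 0.37 log2, SE 0.13). Neither overlapped between exposures, so 7.41% of the list lay wholly above vehicle, against 1.06% of all genes. Over the alternatives that keep all arrays, Egr3 differed by 0.13 to 0.53 log2 and Atf3 by 0.41 to 0.61 log2. Both had an adjusted p of 0.982 in limma.

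Fos and Egr1 did not separate the exposures. Fos measured 13.55, 13.96, 13.90 and 14.56 log2 after octanol, against 13.55, 12.92, 14.11 and 14.56 log2 after vehicle, a difference of 0.21 log2 (SE 0.33) that was -0.08 log2 without vehicle replicate 2. Egr1 measured 11.98, 12.05, 12.54 and 12.00 log2 after octanol, against 12.52, 11.60, 12.50 and 12.40 log2 after vehicle, a difference of -0.11 log2 (SE 0.22). Arc averaged 6.25 ± 0.14 log2 after octanol and 6.25 ± 0.15 log2 after vehicle (SD, n = 4 each), at background. Nr4a2, an orphan nuclear receptor gene, differed by -0.51 log2 (SE 0.44), and Klf4 by -0.43 log2 (SE 0.21).

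Neutrophil genes were higher after octanol in their fitted values. All 17 measured neutrophil genes had a difference above 0, with a median of 0.48 log2 and 3 (17.6%, against 2.02% of all genes) higher at an unadjusted p under 0.05. The neutrophil mean over arrays was 14.51, 13.47, 13.74 and 14.44 log2 after octanol, against 13.25, 13.24, 13.62 and 14.27 log2 after vehicle. Octanol replicates 1 and 4 and vehicle replicate 4 were high and the exposures overlapped, and the median was 0.25 log2 without octanol replicate 1 and 0.30 log2 without vehicle replicate 2. The median in GFP+ cells was 0.53 log2. Csf3r measured 12.94, 11.43, 11.67 and 12.77 log2 after octanol, against 11.26, 11.04, 11.43 and 11.86 log2 after vehicle (difference 0.80 log2, SE 0.33). Mmp9, a matrix metalloproteinase, differed by 0.76 log2 (SE 0.36), the chemokine receptor Cxcr2 by 0.74 (SE 0.35) and the collagenase Mmp8 by 0.64 (SE 0.39). The share of neutrophils in the sorted cells was not measured.

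Monocyte and macrophage genes had a median of 0.11 log2 over 21 genes, with 2 (9.52%, against 2.02% of all genes) higher at an unadjusted p under 0.05. The median was 0.0101 log2 without octanol replicate 1, 0.036 log2 without octanol replicate 4 and 0.31 log2 without octanol replicate 2. Tyrobp, a signalling adaptor of myeloid and natural killer cells, measured 12.34, 11.55, 11.51 and 11.99 log2 after octanol, against 10.44, 10.83, 11.07 and 11.77 log2 after vehicle (difference 0.82 log2, SE 0.28). Vehicle replicate 4 lay among the octanol values. Fcgr1, an immunoglobulin receptor, measured 8.57, 8.003, 8.09 and 8.07 log2 after octanol, against 7.51, 7.82, 7.80 and 7.64 log2 after vehicle, without overlap (difference 0.49 log2, SE 0.15). Itgam, an integrin of myeloid cells, differed by 0.50 log2 (SE 0.25). Inflammatory cytokine and chemokine genes had a median of 0.04 log2 over 18, with 1 (5.56%, against 2.02% of all genes) higher at an unadjusted p under 0.05. That gene was Cxcl2, a chemokine that recruits neutrophils, at 0.52 log2 (SE 0.23). Ccl6 and Il1rn, a chemokine and an interleukin-1 receptor antagonist, differed by 0.61 log2 each (SE 0.31 each), and by 0.28 and 0.26 log2 without octanol replicate 1.

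B cell and MHC class II genes had medians below 0 whose size depended on single arrays. Their means were lower after octanol within each replicate number. B cell genes had a median of -0.46 log2, with 10 of 12 below 0 and none at an unadjusted p under 0.05. That median was -0.089 log2 without vehicle replicate 1, -0.17 log2 without octanol replicate 4, -0.82 log2 without octanol replicate 1 and -0.87 log2 without vehicle replicate 4. The mean over the 11 B cell genes above background was 9.64, 9.003, 8.39 and 8.05 log2 in octanol replicates 1 to 4. In vehicle replicates 1 to 4 it was 10.21, 9.59, 8.94 and 8.21 log2, so it fell with the replicate number in both exposures. Leaving out 1 array also leaves the numbers unequal between exposures, and how far this moved the median was not tested. The labels do not say that a number marks a shared day. Cd79a, a B cell receptor component, measured 11.70, 11.01, 9.26 and 9.24 log2 after octanol, against 12.86, 11.79, 10.998 and 9.41 log2 after vehicle. The spread within each exposure was wide and the difference was -0.96 log2 (SE 0.73), or -0.43 log2 without vehicle replicate 1. Vpreb3, a gene of early B cells, differed by -0.70 log2 (SE 0.60), and by -0.28 log2 without octanol replicate 4. All 6 MHC class II genes lay below 0, with a median of -0.33 log2 that was -0.018 log2 without vehicle replicate 1. Of them 1 (16.7%, against 2.56% of all genes) was lower at an unadjusted p under 0.05. That gene was H2-DMa, of peptide loading, at -0.52 log2 (SE 0.19). The MHC class II mean was 10.83, 10.64, 10.21 and 10.26 log2 in octanol replicates 1 to 4. In vehicle replicates 1 to 4 it was 11.65, 10.82, 10.47 and 10.27 log2, higher by little in replicate 4. Ciita, the class II transactivator, stood at 8.33 log2 on vehicle replicate 1, and its difference of -0.43 log2 (SE 0.31) was -0.05 log2 without that array. T and NK cell genes had a median of -0.17 log2 over 15, or -0.087 log2 without vehicle replicate 1. At an unadjusted p under 0.05, 1 (6.67%, against 2.56% of all genes) was lower, Il7r at -0.27 log2 (SE 0.12). Cd3e, a T cell receptor subunit, differed by -0.53 log2 (SE 0.25) and Gzma, a granzyme, by 0.48 log2 (SE 0.31). Erythroid genes had a median of -0.03 log2 over 10, with Car1, a carbonic anhydrase of red cells, at -0.34 log2 (SE 0.52). Interferon-stimulated genes had a median of -0.02 log2 over 26, with Ifit2 at -0.27 log2 (SE 0.15). Neither of these 2 lists held a gene at an unadjusted p under 0.05.

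**Figure D5:**
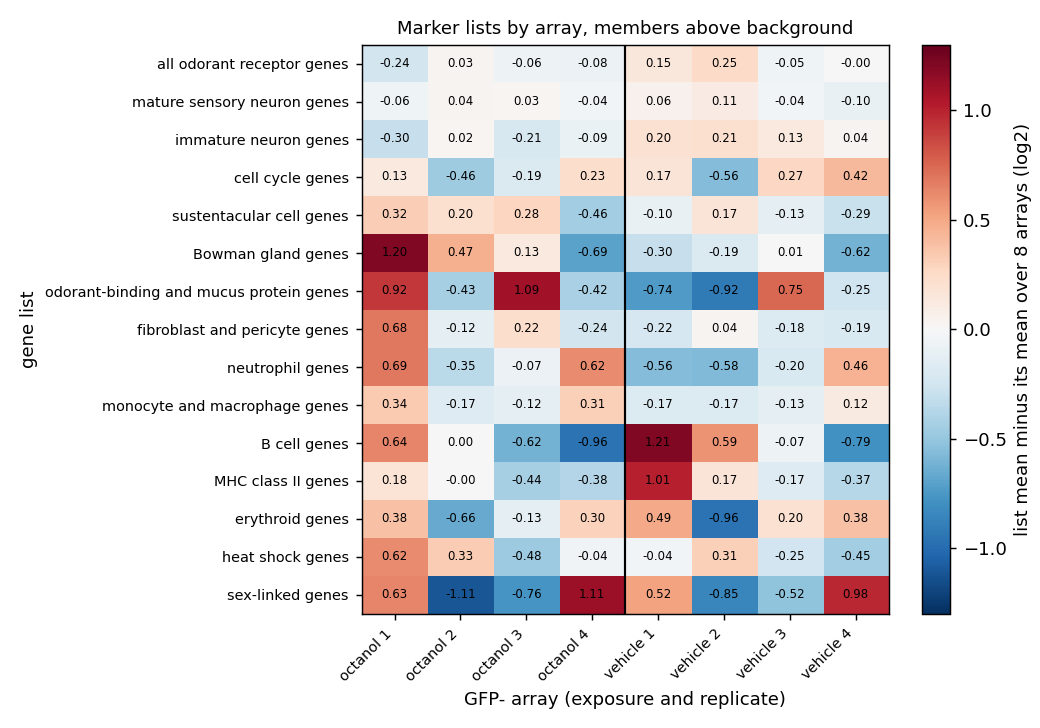
Deviation (log2) of each list's mean from its mean over the 8 GFP- arrays, for 15 gene lists in rows and arrays in columns, octanol arrays left of vehicle arrays. Octanol replicate 1 is high for neutrophil, gland and heat shock genes and low for odorant receptors, and vehicle replicate 1 is high for B cell and MHC class II genes.

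Support cell and gland genes varied chiefly by array. Sustentacular cell genes, of the cells that flank the neurons, had a median of 0.16 log2 over 11 with none at an unadjusted p under 0.05, and medians from 0.0601 to 0.42 log2 when 1 array was left out, the highest without octanol replicate 4 and the lowest without vehicle replicate 4. The list held the mucin Muc2 at 0.37 log2 (SE 0.24) and the carbonyl reductase Cbr2 at 0.34 log2 (SE 0.21). Bowman gland genes had a median of 0.27 log2 over 12, none at an unadjusted p under 0.05, and 0.15 log2 without octanol replicate 1. Bpifb9a, a secreted gland protein gene, had the largest difference of all genes. It measured 15.62, 14.67, 11.02 and 8.74 log2 after octanol, against 10.30, 11.29, 10.26 and 9.31 log2 after vehicle. Octanol replicates 1 and 2 were high and octanol replicate 4 was the lowest of all 8, so the difference of 2.22 log2 (SE 1.25, 95% interval -0.54 to 4.98) was not past the test, and it was 1.19 log2 without octanol replicate 1. In GFP+ cells the difference was 2.17 log2. Bpifb9b, its neighbour in the family, differed by 1.77 log2 (SE 1.18), Bpifb4 by 0.84 (SE 0.65) and Gpx6, a glutathione peroxidase of the gland, by 0.62 (SE 0.40). Without octanol replicate 1 these were 0.81, 0.12 and 0.13 log2. All 14 measured odorant-binding and mucus protein genes lay above 0, with a median of 0.53 log2, none at an unadjusted p under 0.05, and 0.28 log2 without octanol replicate 1. Of the 14, 9 exceeded background. Their mean was 10.79, 9.44, 10.95 and 9.45 log2 after octanol, against 9.13, 8.95, 10.61 and 9.61 log2 after vehicle, so the exposures overlapped. Lcn11 ran from 5.85 to 9.24 log2 after octanol, against 5.96 to 7.88 log2 after vehicle, and Bpifb6 differed by 0.67 log2 (SE 0.50), and by 0.13 log2 without octanol replicate 1.

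The remaining cell types gave few values. Tuft-like microvillar genes had a median of 0.02 log2 over 12 and ionocyte-like microvillar genes -0.06 log2 over 8, with none at an unadjusted p under 0.05 in either. Alox5ap, of leukotriene synthesis, differed by 0.42 log2 (SE 0.28) and the proton pump subunit Atp6v0d2 by -0.37 log2 (SE 0.26). Respiratory ciliated cell genes had a median of 0.08 log2 over 12, with 1 (8.33%, against 2.02% of all genes) higher, Tmem212, at 0.39 log2 (SE 0.15). Olfactory ensheathing glia genes had a median of 0.34 log2 over 8, or 0.199 log2 without octanol replicate 2. Over the 4 above background the median was 0.27 log2. Of the 8, 1 (12.5%, against 2.02% of all genes) was higher at an unadjusted p under 0.05. That gene was Apod, a lipocalin, which measured 11.77, 11.52, 11.50 and 10.91 log2 after octanol, against 10.68, 11.19, 10.57 and 10.56 log2 after vehicle (difference 0.67 log2, SE 0.20). Octanol replicate 4 was the 1 octanol array within the vehicle values. Fabp7, a fatty acid binding protein of these glia, differed by 0.41 log2 (SE 0.31). Fibroblast and pericyte genes had a median of 0.26 log2 over 11, or 0.16 log2 without octanol replicate 1. At an unadjusted p under 0.05, 1 (9.09%, against 2.02% of all genes) was higher, Postn, under background. The collagen Col1a1 stood at 9.52 log2 on octanol replicate 1 and differed by 0.62 log2 (SE 0.42) with that array and by 0.16 log2 without it, and the smooth muscle actin Acta2 by 0.52 (SE 0.37) and 0.10 log2. Endothelial genes had a median of -0.01 log2 over 10, with 1 (10%, against 2.56% of all genes) lower, Eng, whose group means lay under background. Pecam1 differed by -0.33 log2 (SE 0.18).

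Enzymes that act on alcohols and other foreign compounds gave no call. Alcohol and aldehyde dehydrogenase genes had a median of 0.09 log2 over 20, or 0.044 log2 without octanol replicate 1, with 18 above 0 and none at an unadjusted p under 0.05, against -0.02 log2 over all genes. Aldh2, the mitochondrial aldehyde dehydrogenase, measured 15.47, 14.95, 15.03 and 15.19 log2 after octanol, against 14.74, 14.63, 14.87 and 15.22 log2 after vehicle (difference 0.30 log2, SE 0.16). Vehicle replicate 4 lay above 3 of the octanol values. Aldh1b1 differed by 0.26 log2 (SE 0.19) and Aldh1a1, a retinal dehydrogenase, by 0.10 log2 (SE 0.18). Adh7, an alcohol dehydrogenase that also acts on retinol, was under background on all 8 arrays. Cytochrome P450 genes had a median of -0.03 log2 over 18, and of 0.16 log2 over the 11 above background. Of the 18, 2 (11.1%, against 2.02% of all genes) were higher at an unadjusted p under 0.05. They were Cyp4b1 at 0.41 log2 (SE 0.18) and Cyp2j6 at 0.38 log2 (SE 0.16). The retinoic acid hydroxylase Cyp26b1 differed by -0.42 log2 (SE 0.28), and by -0.10 log2 without octanol replicate 1. Conjugating enzyme genes had a median of 0.07 log2 over 23, with 2 (8.70%, against 2.02% of all genes) higher. These were Fmo1, at 0.42 log2 (SE 0.17), and Ugt2b34, under background. Fmo1, though on the list, is a flavin monooxygenase and not a conjugating enzyme. Mgst1, a microsomal glutathione transferase, differed by 0.51 log2 (SE 0.23).

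Stress and energy genes had medians between -0.06 and 0.14 log2. Heat shock genes had a median of 0.14 log2 over 10, or 0.086 log2 without octanol replicate 1, none at an unadjusted p under 0.05. Hspa1b, an inducible chaperone gene, measured 13.32, 12.02, 8.39 and 10.92 log2 after octanol, against 10.35, 12.19, 9.86 and 9.08 log2 after vehicle, with the lowest and the highest value both after octanol. Its near-identical copy Hspa1a, with which it may share signal, had a difference of 0.73 log2 (SE 0.82). Without octanol replicate 1 the differences were 0.073 log2 for Hspa1b and 0.065 log2 for Hspa1a. Unfolded protein response genes had a median of 0.00 log2 over 19, with Edem1 at -0.33 log2 (SE 0.18), and oxidative stress genes -0.06 log2 over 16, with Srxn1 at -0.36 log2 (SE 0.18), none at an unadjusted p under 0.05. Respiratory chain genes had a median of 0.06 log2 over 26, with 1 (3.85%, against 2.02% of all genes) higher, Cox7a2, at 0.37 log2 (SE 0.16). Vmn2r29, a vomeronasal receptor gene above background, differed by 0.45 log2 (SE 0.26).

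Among the genes that are not receptors, those with the largest differences without overlap held several immune genes on the higher side. Cd300ld, an immune receptor of myeloid cells, measured 10.79, 10.15, 9.96 and 10.20 log2 after octanol, against 9.03, 9.84, 9.31 and 9.95 log2 after vehicle (difference 0.74 log2, SE 0.24). Octanol replicate 3 and vehicle replicate 4 nearly met. Hdc, which makes histamine, measured 12.35, 11.99, 11.83 and 12.39 log2 after octanol, against 11.31, 11.35, 11.35 and 11.73 log2 after vehicle (difference 0.70 log2, SE 0.16). In GFP+ cells Hdc averaged 8.07 ± 0.21 log2 after octanol and 7.77 ± 0.07 log2 after vehicle (SD, n = 4 each). That difference of 0.30 log2 was also without overlap and not past the adjusted test. Klra2, a lectin-like receptor, and Cp, ceruloplasmin, each differed by 0.65 log2 (SE 0.19 and 0.15). Pycard, the inflammasome adaptor, differed by 0.57 log2 (SE 0.13), and the others were Adamtsl5 (0.58), the claudin Cldn10 (0.58), Medag (0.58), the transcription factor Lmx1a (0.57), the matrix protein Thbs4 (0.57), 2610528A11Rik (0.56) and the antisense gene Gata5os (0.72). Gata5os exceeded background on 3 octanol arrays and on no vehicle array, and with values raised to background it was 1.199-fold higher.

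On the lower side, Nhlh1 and 11 further genes were named by the same rule. Usp29, an imprinted gene, differed by -1.05 log2 (SE 0.29), but no octanol array and 3 vehicle arrays exceeded background. With values raised to background it was 1.39-fold lower. Ifi213, an interferon-inducible gene, measured 7.47, 7.08, 7.45 and 7.08 log2 after octanol, against 8.83, 7.90, 8.15 and 7.56 log2 after vehicle (difference -0.84 log2, SE 0.24). Polrmt, the mitochondrial RNA polymerase, measured 6.71, 7.35, 6.89 and 7.04 log2 after octanol, against 7.97, 7.59, 7.79 and 7.72 log2 after vehicle (difference -0.77 log2, SE 0.15). All vehicle values lay above all octanol values in both. Fscn1, fascin, an actin-bundling protein gene, differed by -0.75 log2 (SE 0.17), Ppm1l, a phosphatase, by -0.65 (SE 0.15), and Pdk3, a pyruvate dehydrogenase kinase, by -0.63 (SE 0.23). Without octanol replicate 1 the Pdk3 difference was -0.37 log2. Nexn, an actin-binding protein gene, differed by -0.63 log2, the phosphodiesterase Pde3b by -0.61, Adamts6 by -0.60, Hirip3 by -0.55 and Prrg1 by -0.55. Adamts6 exceeded background on no octanol array, and with values raised to background it was 1.14-fold lower. None of these genes passed the adjusted test, and each had an adjusted p of 0.982 in limma.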

How the data were processed

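The deposited values are log2 signals per probe set, which the authors computed with Affymetrix Expression Console, per the submitters' processing notes. The program's version and normalization method, not given in the sources used here, remain unknown. Values span 2.22 to 18.70 log2, with medians of 7.52 to 7.70 log2 on the 8 GFP- arrays, and were used without further scaling. Of 28846 probe sets 6640 are controls and 19572 name 1 gene, each matched by Entrez number to RefSeq names of assembly GRCm38.p6. For genes with several probe sets the highest mean was kept, which left out 67 probe sets and gave 19505 genes. The 2634 unnamed probe sets gave 0 calls in limma (smallest adjusted p = 0.531). Odorant receptors are Olfr genes, with class taken from the MOR number (1 to 42 for class I), which gave 121 class I, 950 class II and 20 unclassified. Array number and probe brightness limit the precision, since arrays give no counts.

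Octanol and vehicle GFP- arrays were compared with limma 3.58.1 (lmFit, eBayes, 2-sided) in R 4.3.3, with Benjamini-Hochberg adjustment over all genes and a threshold of 0.05. The difference between fractions was tested as an interaction over 16 arrays with the pool as a block. The pools of both fractions were matched by exposure and replicate number, which the labels do not state outright. SE is the moderated standard error. Without a model, genes were counted whose 4 values per exposure do not overlap. An exact permutation test of 4 arrays against 4 cannot give a p below 0.0286. Folds of genes with arrays under background were computed after raising values of both exposures to background.

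Genes named are the 12 largest higher and lower differences without overlap (8 for receptors, where 1 was higher), up to 4 members per list of largest difference above background, and a fixed set (S100a5, Omp, Gap43, Fos, Egr1, Arc, Adh7, Aldh1a1, Olfr95). Others are named for a count of 5 or fewer or, after their values were seen, for size. The lists and named genes were chosen with earlier results of these data known. Alternatives tried were quantile scaling, centring on all genes or on receptors, a filter on dim genes, a replicate block, a fit of 16 arrays, a trended prior, array weights, the mean of probe sets and leaving out each array. The scripts were tested on simulated data.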

Additional observations from a re-analysis of the deposited data

Results flagged for a closer look

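Single arrays stood far from the other 3 of their exposure in 23 of 328 groups of 4 values examined, 13 for genes and 10 for list means, where chance gives about 5%. After octanol, Medag was high on replicate 2 (7.51 log2), Hirip3 on replicate 3 (9.54), Egr1 on replicate 3 (12.54) and Fcgr1 on replicate 1 (8.57). Ppm1l was low on octanol replicate 1 (8.54 log2), Olfr738 on replicate 3 (6.36), Tmem212 on replicate 2 (6.77), Fabp7 on replicate 4 (6.46) and Car1 on replicate 2 (10.23). After vehicle, Hdc was high on replicate 4 (11.73 log2), Cp was low on replicate 4 (6.17), and Egr1 (11.60) and Car1 (9.73) were low on replicate 2.

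Among list means after octanol, the sustentacular cell genes (10.85 log2) and ensheathing glia genes (7.44) were low on replicate 4, and the ventral zone genes were high on replicate 2 (12.14). After vehicle, replicate 2 was low for neuronal precursor genes (11.24 log2) and inflammatory genes (8.45) and high for fibroblast and pericyte genes (8.19) and respiratory chain genes (14.06). Vehicle replicate 4 was low for respiratory ciliated cell genes (10.16 log2) and high for monocyte and macrophage genes (10.75), and vehicle replicate 1 was low for conjugating enzyme genes (10.00). Vehicle replicate 2 holds 6 of the 23 flags.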

How the results depend on the processing

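The count of genes past the adjusted test stayed at 0 in both directions, and at 0 for the difference between fractions, under every alternative run. The smallest adjusted p for octanol against vehicle was 0.726 with arrays centred on receptors and 0.639 with the replicate block, and at least 0.879 under the other settings that keep all arrays. Centring on receptors moved the median of all genes to 0.14 log2 and the receptor median to -0.0049 log2, the latter near 0 by construction. It gave 30 receptors higher and 38 lower at an unadjusted p under 0.05, 643 genes without overlap higher and 27 lower. Centring on all genes gave 14 receptors higher and 78 lower at that threshold, with 334 genes without overlap higher and 167 lower. Leaving out dim genes gave 10 receptors higher and 102 lower, with 99 genes without overlap higher and 236 lower. The fit of 16 arrays gave 4 receptors higher and 61 lower. Leaving out 1 array gave 6 to 20 receptors higher and 70 to 126 lower, 365 to 578 genes without overlap higher and 452 to 699 lower, since 3 values against 4 separate more easily, and a receptor median of -0.20 to -0.11 log2. Without vehicle replicate 2 came the fewest lower and most higher receptors.

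With the replicate number as a block (paired fit), 593 genes were higher and 684 lower at an unadjusted p under 0.05, 14 and 171 of them receptors. Arrays with the same number correlated at 0.07 to 0.33 in their deviations from the exposure means, and 7 of 8 arrays correlated best with their own number. Within each of the 4 numbers the receptor mean was lower after octanol. The labels do not say that a number marks a shared day.

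With 1 array left out, 64 of 120 named genes had a difference that shrank by over 1.5 times or turned. Of 2033 recomputed values of 120 named genes, 36 in 13 genes changed sign, all with differences within their SE or near it. With arrays centred on receptors these were S100a5 (0.0085), Egr1 (0.0397), Arc (0.15), Ebf2 (0.012), Omp (0.14), Robo2 (0.012), Uty (0.084), Eif2s3y (0.086) and Kdm5d (0.097). Centring on all genes turned Arc (0.0391) and Omp (0.0302), and array weights turned Arc (0.0087), Omp (0.0028), Uty (0.022) and Eif2s3y (0.024). Leaving out 1 array gave ranges of -0.0382 to 0.027 log2 for Omp, -0.43 to 0.31 for Uty, -0.49 to 0.30 for Eif2s3y, -0.42 to 0.28 for Kdm5d, -0.062 to 0.0608 for Arc, -0.0312 to 0.34 for Adh7, -0.0114 to 0.22 for Aldh1a1, -0.0564 to 0.20 for Icam1 and -0.0827 to 0.46 for Fos. The cause of these moves was not tested.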

Other observations

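The Y-linked genes varied by replicate number rather than by exposure. Eif2s3y measured 11.54, 9.60, 9.70 and 11.96 log2 in octanol replicates 1 to 4, against 11.51, 9.79, 9.95 and 11.82 log2 in vehicle replicates 1 to 4. Uty measured 11.01, 9.33, 9.95 and 11.54 log2 after octanol, against 10.91, 9.75, 9.88 and 11.57 log2 after vehicle, and Kdm5d had the same order of high and low arrays. Replicates 1 and 4 were high and replicates 2 and 3 low in both exposures, and the 3 genes differed by -0.07, -0.07 and -0.06 log2 between exposures.

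Odorant-binding protein genes and the eosinophil gene Prg2, chosen after their values were seen, varied by more than 1 log2 within an exposure. Obp2a, an odorant-binding protein gene, measured 13.78, 12.94, 15.43 and 13.93 log2 after octanol, against 12.80, 12.17, 15.47 and 13.49 log2 after vehicle. Obp1a measured 9.20, 7.22, 9.58 and 7.39 log2 after octanol, against 7.15, 6.68, 8.86 and 8.65 log2 after vehicle. Prg2, the major basic protein of eosinophils, measured 11.41, 10.74, 11.93 and 11.88 log2 after octanol, against 9.97, 9.90, 12.11 and 12.81 log2 after vehicle. Each of these genes overlapped between exposures.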
